A study of Mus musculus with 6 samples.

Results

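Heat shock chaperones of the cytosol and the mitochondria are described here in regulatory T cells (Treg) that do or do not express a reporter of Blimp-1, the transcriptional repressor encoded by Prdm1. The members are 10 genes of 26286 in the count tables, picked by symbol: Hspa1a, Hspa1b, Hspa8 and Hsph1 of the HSP70 and HSP110 families, the J proteins Dnaja1 and Dnajb1, the HSP90 genes Hsp90aa1 and Hsp90ab1, and the mitochondrial pair Hspd1 and Hspe1. All 10 had counts in the poly(A) libraries. The fit across all libraries tested 8 of them, and the remaining 2, Hspa8 and Dnajb1, were listed at 0 in every library of the other protocol.

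The cells were CD4+ CD25high Treg of C57BL/6 mice with a Blimp1/GFP reporter, taken from pooled spleens and lymph nodes and sorted by GFP into positive (GFP+) and negative (GFP-) cells. All titles, those of the GFP- controls too, carry the prefix BlimpHet. RNA sequencing covered 3 independent samples of each population. Poly(A) selection was used for GFP- replicate 20 and GFP+ replicate 19, and a single-cell protocol for the other libraries (GFP- 2 and 5, GFP+ 1 and 4). Levels are listed throughout in the order 20, 2, 5 for GFP- and 19, 1, 4 for GFP+ Treg, the poly(A) library first.

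Molecular chaperones keep proteins folded. HSP70 binds exposed hydrophobic stretches of a client protein, J proteins such as Dnajb1 bring clients and stimulate its ATPase, and HSP110 exchanges its nucleotide. HSP90 then finishes the folding of kinases and receptors, while Hspd1 (HSP60) and its lid Hspe1 (HSP10) fold proteins inside mitochondria. Under heat or protein stress the factor HSF1 binds heat shock elements, which are alternating repeats of GAA and TTC, and induces these genes. Some members, such as Hspa8 and Hsp90ab1, are made constantly, and others, such as Hspa1a and Hspa1b, mainly on induction. In Treg, HSP60 and HSP70 are known as antigens and as modulators of suppression.

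The heat shock element letters are shown because HSF1 acts through them and most of the matched members hold them. RefSeq promoter windows (250 bases before to 50 after a start site, assembly GRCm38.p6, while the counts rest on mm9) matched 7 members: Hspa1a, Hspa1b, Hspd1, Hspe1, Hsph1, Dnaja1 and Dnajb1. Each stretch below runs 5′ to 3′ on the strand of its gene, and capitals mark GAANNTTC or TTCNNGAA, including overlapping matches.
Hspa1a, chr17:34972207-34972306, minus strand: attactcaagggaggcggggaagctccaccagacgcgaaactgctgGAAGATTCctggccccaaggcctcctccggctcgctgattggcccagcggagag
Hspe1, chr1:55088053-55088082, plus strand: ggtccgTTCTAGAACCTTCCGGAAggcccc
Hsph1, chr5:149636351-149636380, minus strand: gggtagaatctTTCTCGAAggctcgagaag
Dnaja1, chr4:40722333-40722362, plus strand: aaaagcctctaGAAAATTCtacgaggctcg

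At least 1 window of 6 of the 7 matched members held GAANNTTC or TTCNNGAA, which are each their own reverse complement, against 17.0% of the 27025 genes in the promoter table. A run of 3 units (GAANNTTC followed directly by NNGAA, or its reverse complement, TTCNNGAA followed by NNTTC) was found for Hspd1, Hspe1 and Hsph1, against 0.66% of genes. The Hsph1 run lay 36 bases after its upstream start site. Hspd1 and Hspe1 are neighbours that are read in opposite directions from start sites 216 bases apart. The letters printed for Hspe1 are therefore the same stretch of DNA that lies before the RefSeq start of Hspd1. In GENCODE M21 the printed Hspe1 stretch lies in an exon of an Hspd1 transcript. The stretch printed for Dnaja1 overlaps exons of Dnaja1 and Gm6297, and that of Hsph1 overlaps exons of Hsph1. Neither window of Dnajb1 held a match. The 300-base windows of Hspa1a and Hspa1b differed at 4 positions, and the 100 bases printed for Hspa1a stand without a change in Hspa1b (chr17:34959289-34959388, minus strand). These matches are descriptions of letters and do not show binding.

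The libraries held 15224051 to 28354321 counts, and the 10 members took 0.437% to 0.920% of them. Foxp3, the defining factor of Treg, stood between 1097 and 2624 CPM in the 6 libraries. Unless all counts are named, CPM are counts relative to the total of the tested genes in the library, scaled by TMM. Genes on chromosomes 3, 8 and 9 were listed at 0 in all 4 single-cell protocol libraries (541 of 542, 630 of 630 and 637 of 637 of those with at least 100 poly(A) counts), and Hspa8 and Dnajb1 are on chromosomes 9 and 8. Markers are counted here as rising or falling at an adjusted p under 0.05 in the edgeR fit below. Over all tested genes 9.81% rose and 3.68% fell. Myeloid markers moved with the populations: all 14 tested markers of 15 rose in GFP+ Treg. The summed level of the list was 17.6 to 34.3 CPM in GFP- and 887 to 1792 CPM in GFP+ libraries. Sums here and below also take in untested list genes. Among these are Vcam1 (109 CPM in GFP+ replicate 19) and the cycling gene Mcm5 (113 CPM in GFP- replicate 20, 194.5 CPM in GFP+ replicate 19), both at 0 in the single-cell protocol. Of the tested myeloid markers, Itgam was at 0 in both GFP- libraries of the single-cell protocol and Cd14 in GFP- replicate 5. Markers of cycling cells rose for 8 of 9 tested genes (summed 71.2 to 204 CPM against 435 to 706 CPM) and erythroid markers for 2 of 4 (34.5 to 593 CPM against 98.9 to 1809 CPM). Plasma cell markers rose for 2 of 3 (6.59 to 22.9 CPM against 22.7 to 148.8 CPM) and B cell markers for 1 of 6, the kinase gene Blk (list sum 69.99 to 181 CPM against 100.4 to 319 CPM). CD8 T and natural killer markers fell for 2 of 4 (28.2 to 77.7 CPM against 15.9 to 56.9 CPM), and of 9 Treg and T cell markers 1 rose. The counts for B cell and for Treg and T cell markers are near the share of all tested genes and show no shift of these lists. The part of these cells in the results below was not tested. In sorted bulk RNA, a different share of cells and a different amount of RNA per cell cannot be told apart.

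The comparison of GFP+ with GFP- Treg asks which transcripts go with expression of the Blimp-1 reporter. Of the 8 tested chaperones, the stress-induced HSP70 genes Hspa1a and Hspa1b rose about 2-fold in GFP+ Treg, and none of the 8 fell (quasi-likelihood test of edgeR, Benjamini-Hochberg adjusted over 10523 genes). Across all tested genes, 13.5% were called, 9.81% as higher and 3.68% as lower, so that 72.7% of the calls were higher (62.7% with DESeq2). At an unadjusted p under 0.05 the members' counts were again 2 higher and 0 lower, where 15.3% and 11.5% of all tested genes were, and DESeq2 gave the same counts, with 11.4% of genes higher and 6.79% lower. The median log2 difference of the 8 members was -0.21, against -0.077 over all tested genes.

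**Figure D1:**
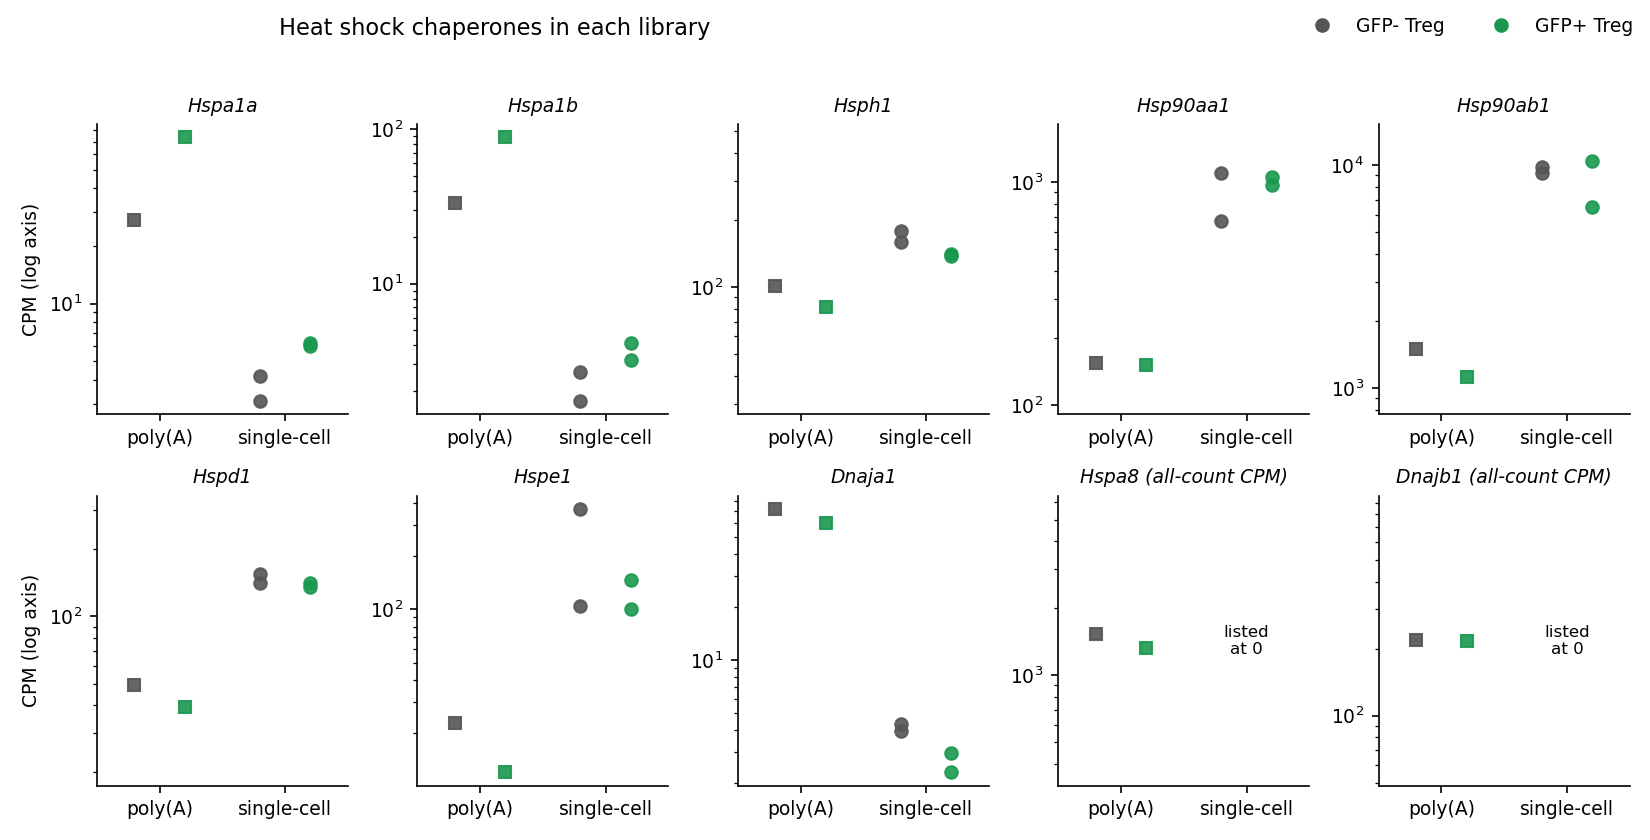
Levels of the 10 chaperone genes in each library as CPM on log axes (TMM-scaled, or scaled to all counts for Hspa8 and Dnajb1). Squares are poly(A) and circles single-cell protocol libraries, grey GFP- and green GFP+ Treg, and every GFP+ point of Hspa1a and Hspa1b lies above the GFP- points of its own protocol.

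Hspa1a (Entrez 193740) and Hspa1b (Entrez 15511) encode nearly the same inducible cytosolic HSP70. Hspa1a levels were 27.2, 3.12 and 4.18 CPM for GFP- Treg, and 73.6, 6.22 and 6.02 CPM for GFP+ Treg. All GFP+ libraries were above the GFP- libraries of their protocol, while the poly(A) libraries of both populations were far above the others. On the log2 scale the rise came to 1.03 ± 0.25 (SE of the fit, 3 libraries a population, 95% interval 0.45 to 1.61, edgeR adjusted p = 0.0294). Hspa1b levels were 33.2, 1.74 and 2.66 CPM for GFP- Treg, and 88.7, 3.19 and 4.13 CPM for GFP+ Treg. Again no GFP+ library overlapped the GFP- libraries of its protocol, and the log2 fold change was 1.05 ± 0.28 (95% interval 0.41 to 1.69, edgeR adjusted p = 0.0401).

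The poly(A) libraries held most of the reads of this pair and showed the larger rise. The single-cell protocol libraries differed in the same direction, by less. Hspa1a had 1253 and 3620 counts in GFP- replicate 20 and GFP+ replicate 19, but 33 to 83 counts in the single-cell protocol libraries. In the poly(A) pair the log2 ratio of all-count CPM was 1.47 for Hspa1a and 1.45 for Hspa1b. A ratio above 1 was found for 10.3% of the 12247 genes with at least 100 counts in the pair, and 2 of the 10 members had one. None of the 10 was below -1, against 4.68% of genes. In the 4 single-cell protocol libraries alone the log2 fold change of Hspa1a was 0.74 ± 0.44 (edgeR adjusted p = 0.488) and that of Hspa1b 0.74 ± 0.50 (edgeR adjusted p = 0.556), where 6.95% of genes were called. None of the 8 members was called there, nor had any an unadjusted p under 0.05, as 16.3% of genes did. The difference between the protocols' effects, poly(A) minus single-cell, was 0.68 ± 0.67 for Hspa1a and 0.65 ± 0.70 for Hspa1b. Neither passed the interaction test (edgeR adjusted p = 1), which called 0 genes, 0.00% of 10523, with 24 at an unadjusted p under 0.05. That is a smaller share than this threshold passes without any interaction. With 2 residual degrees of freedom the test was conservative and does not show that the protocols agree.

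The calls of Hspa1a and Hspa1b were sensitive to single libraries. When either poly(A) library is left out, the protocol covariate absorbs the other. Leaving out GFP- replicate 20 or GFP+ replicate 19 therefore nearly repeats the comparison in the single-cell protocol libraries alone and is no separate check. Leaving out GFP- replicate 20 gave an edgeR adjusted p of 0.417 for Hspa1a and 0.466 for Hspa1b. Without GFP+ replicate 19 the values were 0.451 and 0.496, without GFP+ replicate 1 0.0861 and 0.0655, and without GFP+ replicate 4 0.0625 and 0.121. Without GFP- replicate 2 Hspa1a kept its call (0.0452) and Hspa1b lost it (0.0640), and without GFP- replicate 5 both passed (0.00594 and 0.00642). The fold changes without 1 library stayed between 0.76 and 1.27 on the log2 scale, all positive. limma on the deposited log2 RPKM gave 0.95 and 0.89 with adjusted p of 0.0846 and 0.117.

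**Figure D2:**
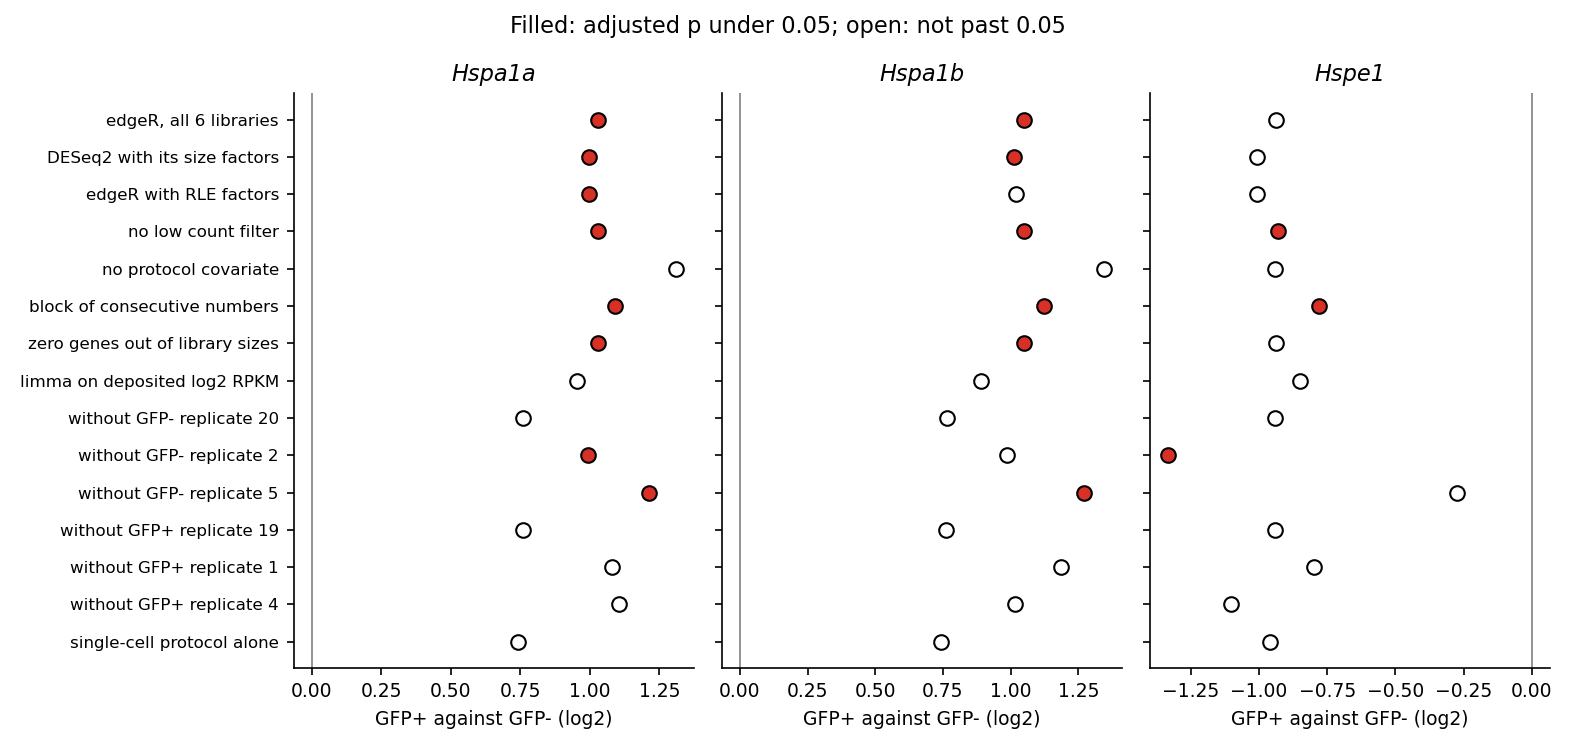
Log2 difference of GFP+ against GFP- Treg for Hspa1a, Hspa1b and Hspe1 (x axis) under each processing choice or left-out library (rows). Filled points have an adjusted p under 0.05: Hspa1a and Hspa1b stay positive throughout but lose the call under several settings, and Hspe1 stays negative and passes under 3.

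Reads of the 2 genes cannot be fully separated. In the GENCODE M21 transcripts (GRCm38), 62.3% of the 50-base stretches of the longest Hspa1b transcript are also present in Hspa1a, and how such reads were counted is not stated. The ratio of Hspa1a to Hspa1b per length was 0.822 and 0.834 in the poly(A) libraries, and 1.46 to 1.96 in the single-cell protocol libraries. It therefore differed between protocols rather than between populations. Summed to 1 feature, the pair reached 60.5, 4.85 and 6.84 CPM for GFP- Treg, and 162, 9.41 and 10.2 CPM for GFP+ Treg. The summed log2 fold change was 1.005 ± 0.25 (edgeR adjusted p = 0.0322).

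Hspa8 (Entrez 15481), the constitutive HSP70 that also uncoats clathrin vesicles, could be read only in the poly(A) pair. Scaled to all counts, its level was 1539 CPM for GFP- and 1327 CPM for GFP+ Treg, a log2 ratio of -0.21 (counting interval at 95%, exact binomial, -0.23 to -0.19), without a replicate check. The interval covers counting error only. The ratio is at the 36.8th percentile of the 12247 genes with at least 100 counts in the pair, and it was -0.037 in the deposited log2 RPKM. Per length, Hspa8 exceeded Hspa1a by a factor of 44.5 in GFP- replicate 20 and 13.8 in GFP+ replicate 19. Other genes share 73.2% of the 50-base stretches of Hspa8, chiefly the locus Gm15459.

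Hsph1 (Entrez 15505), the HSP110 nucleotide exchange factor of HSP70, was measured at 101, 159 and 179 CPM for GFP- Treg, and 81.1, 141 and 138 CPM for GFP+ Treg. Each GFP+ library was below each GFP- library of its protocol. The log2 difference did not pass, at -0.29 ± 0.22 (95% interval -0.78 to 0.21, edgeR adjusted p = 0.451). No 50-base stretch of Hsph1 was present in another gene's transcripts.

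Dnaja1 (Entrez 15502), a farnesylated J protein partner of Hspa8, gave 72.2, 4.35 and 3.92 CPM for GFP- Treg, and 59.7, 2.29 and 2.97 CPM for GFP+ Treg. It was lower in GFP+ Treg within both protocols, but the single-cell protocol values rest on 28 to 60 counts. Its log2 difference was -0.50 ± 0.24 (95% interval -1.03 to 0.040, edgeR adjusted p = 0.220). Dnajb1 (Entrez 81489), the stress-induced J protein partner of inducible HSP70, gave 218 CPM of all counts for GFP- and 216 CPM for GFP+ Treg in the poly(A) pair. That is a log2 ratio of -0.013 (counting interval -0.064 to 0.039) beside ratios of 1.47 and 1.45 for Hspa1a and Hspa1b on the same scale. Scaling the pair by TMM turned the Dnajb1 ratio to 0.020.

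Neither HSP90 gene passed the test. Hsp90ab1 (Entrez 15516), the constitutive HSP90, gave 1494, 9777 and 9210 CPM for GFP- Treg, and 1124, 10392 and 6456 CPM for GFP+ Treg. GFP+ replicate 1 was the highest of all libraries and GFP+ replicate 4 the lowest of its protocol, so the populations overlapped (log2 difference -0.25 ± 0.37, 95% interval -1.10 to 0.60, edgeR adjusted p = 0.717). Hsp90aa1 (Entrez 15519), the inducible HSP90, gave 154, 668 and 1100.4 CPM for GFP- Treg, and 151, 1053 and 975 CPM for GFP+ Treg. Its values overlapped too, at 0.12 ± 0.29 (95% interval -0.55 to 0.79, edgeR adjusted p = 0.837), and without GFP- replicate 2, its lowest single-cell protocol library, the difference turned to -0.10. The ratio of Hsp90aa1 to Hsp90ab1 per length, which needs no scaling between libraries, was 0.0908, 0.0601 and 0.105 in GFP- and 0.118, 0.0891 and 0.133 in GFP+ libraries. GFP+ replicate 1 overlapped the GFP- libraries of its protocol in this ratio.

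The mitochondrial chaperonin genes also did not pass. Hspd1 (Entrez 15510), the HSP60 ring protein, gave 49.3, 154 and 141.0 CPM for GFP- Treg, and 39.2, 140.8 and 136 CPM for GFP+ Treg. Every GFP+ library was below the GFP- libraries of its protocol, by a narrow margin between GFP+ replicate 1 and GFP- replicate 5, and the log2 difference was -0.17 ± 0.21 (95% interval -0.67 to 0.32, edgeR adjusted p = 0.657). Hspe1 (Entrez 15528), the HSP10 lid, gave 22.8, 105 and 370.5 CPM for GFP- Treg, and 11.9, 101 and 146 CPM for GFP+ Treg. GFP- replicate 5 was the highest of all libraries, and GFP+ replicate 4 lay between it and GFP- replicate 2. The log2 difference was -0.94 ± 0.43 (95% interval -1.91 to 0.032, edgeR adjusted p = 0.199).

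The Hspe1 value depended on which GFP- library was left out. Without GFP- replicate 5 its log2 difference was -0.27 (edgeR adjusted p = 0.595), and without GFP- replicate 2 it was -1.33 (edgeR adjusted p = 0.0111). In the poly(A) pair, where neither takes part, the log2 ratio of all-count CPM was -0.90. Although Hspd1 and Hspe1 start from 1 shared stretch and work as 1 machine, their ratio per length was not constant: Hspe1 to Hspd1 was 1.40, 2.06 and 7.98 for GFP- Treg, and 0.923, 2.18 and 3.27 for GFP+ Treg.

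Gene length moved with this spread. Hspe1 is the shortest member, at 768 bases, while the others span 2104 to 5792 bases by the lengths listed with the poly(A) counts. GFP- replicate 5 exceeded GFP- replicate 2 by a median log2 ratio of 0.85 over the 1533 genes under 1000 bases, and fell short of it, at -0.37, over the 4228 genes of 3000 bases and longer. The same medians for GFP+ replicate 4 over replicate 1 were 0.089 and -0.053. The log2 ratio of Hspe1 between GFP- replicates 5 and 2, 1.82, was at the 98.4th percentile of 10388 genes. The part of length in the Hspe1 difference was not tested.

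**Figure D3:**
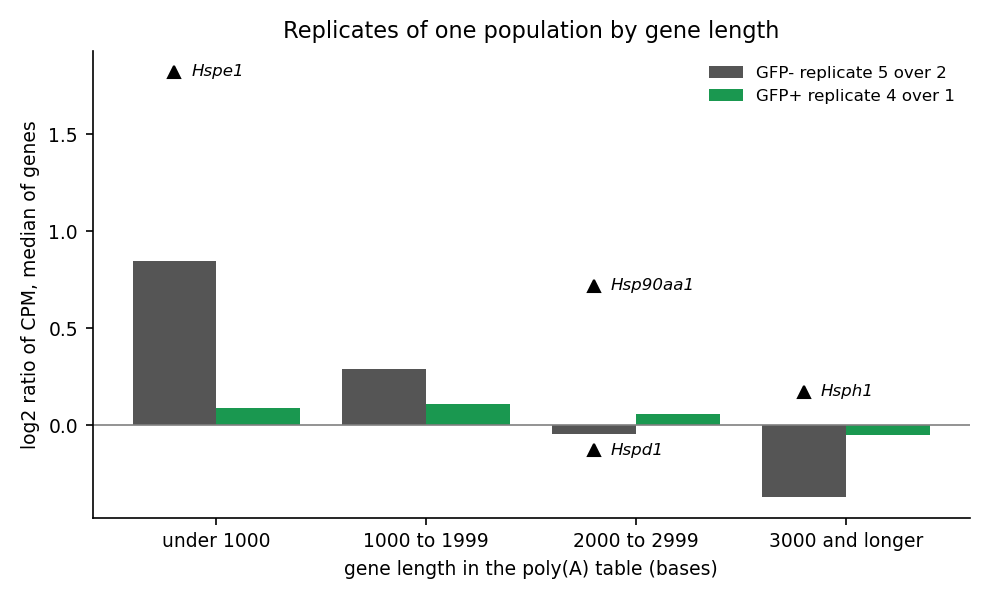
Median log2 ratio of CPM between the 2 single-cell protocol libraries of each population (bars), by gene length in bases, with 4 members as triangles for GFP- replicate 5 over 2. Short genes are higher in GFP- replicate 5 (median 0.85 under 1000 bases), and Hspe1 stands above its bin at 1.82.

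In all, 2 of the 8 members were higher and 3 lower in GFP+ Treg without overlap within either protocol (Hsph1, Dnaja1 and Hspd1 lower). Over all tested genes such an order was found for 21.3% as higher and 19.3% as lower, 40.6% together. On simulated counts with 10523 genes, 100 were changed by 1 on the log2 scale and 100 by 2. The same test recovered 14.0% of the former and 89.0% of the latter, and 11.2% of its calls were unchanged genes. It made 116 calls there against 1419 in the data, which alters the Benjamini-Hochberg cutoff, so recovery in the data may differ. A member that did not pass is not shown to be equal in both populations, and its interval gives the range of differences.

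**Figure D4:**
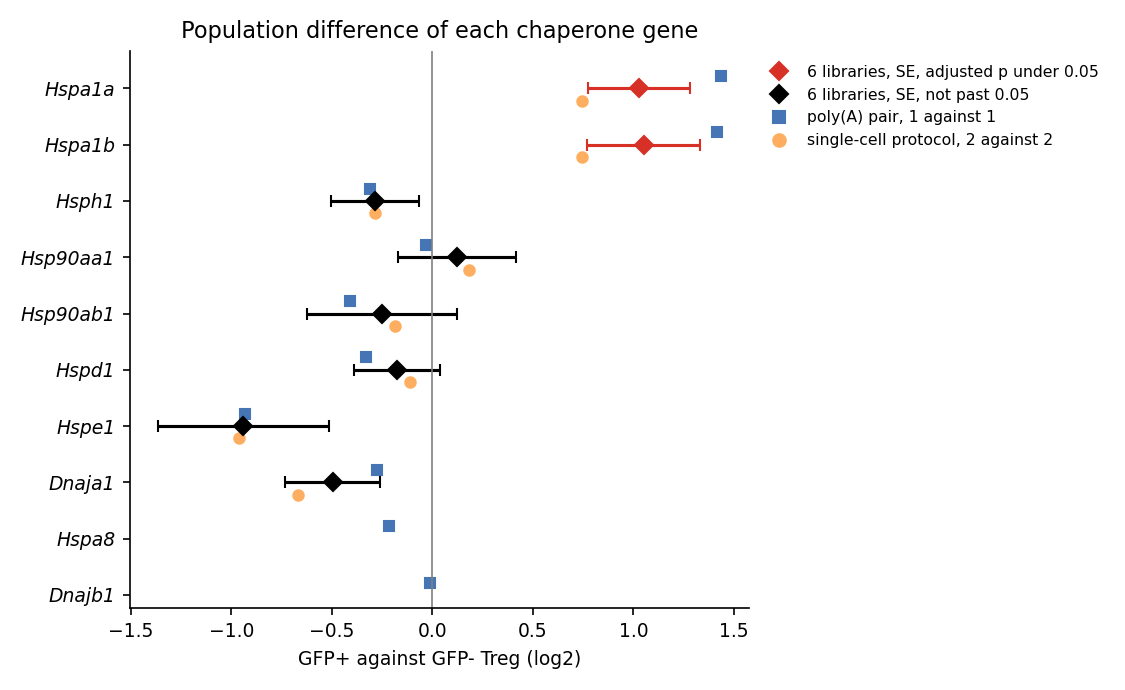
Log2 difference of GFP+ against GFP- Treg per gene. Diamonds with SE are the fit of 6 libraries (red past 0.05), and circles the single-cell protocol libraries. Squares are the poly(A) pair on TMM-scaled CPM (1.44 for Hspa1a), or on all-count CPM for Hspa8 and Dnajb1. Hspa1a and Hspa1b stand to the right at 1.03 and 1.05, Hspe1 to the left at -0.94, and the others lie between -0.50 and 0.12.

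The order of the members' levels per length differed between the poly(A) libraries from the fifth place down, while Hsp90ab1, Hspa8, Dnajb1 and Hsp90aa1 held the first 4 places in both. In GFP- replicate 20 Hsp90ab1 led with 1007 RPKM (all-count CPM per kilobase of gene), followed by Hspa8 at 731, Dnajb1 at 96.3, Hsp90aa1 at 91.4, Hspe1 at 50.1, Hsph1 at 48.9, Hspd1 at 35.7, Dnaja1 at 21.1, with Hspa1b and then Hspa1a, at 16.5, in the last places. In GFP+ replicate 19 Hsp90ab1 had 777 RPKM and Hspa8 631 RPKM, and Hspa1b (54.7 RPKM) and Hspa1a (45.6 RPKM) stood at ranks 5 and 6 among the 10, above Hsph1 (40.4 RPKM), Hspd1 (29.1 RPKM), Hspe1 (26.9 RPKM) and Dnaja1, which was last (17.9 RPKM). With 1 library each, neighbours such as Dnajb1 and Hsp90aa1 or Hspe1 and Hsph1 cannot be ordered. In the single-cell protocol libraries Hsp90ab1 also led, at 1906 to 3298 RPKM.

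Likeness of profiles was measured as the root mean square difference of log2 CPM, centred within each protocol, over the 6 libraries. Among 5944 other genes, Hspa1b ranked 2 for Hspa1a (0.13), between the interleukin receptor gene Il3ra (0.094) and the calcium pump gene Atp2b4 (0.14). For Hspa1b the nearest were F2r, a thrombin receptor gene (0.12), Zbtb42 (0.13) and Hspa1a (0.13). Because reads of Hspa1a and Hspa1b cannot be fully separated, their mutual ranks cannot show how alike these genes are expressed. No other member was among the 3 nearest genes of a member. Hspd1 and Hsph1 differed by 0.11, yet Hsph1 ranked 282 for Hspd1, and Hspe1 ranked 5341 for Hspd1 (0.66). The genes nearest to Hspe1 encode ribosomal proteins, Rps23 (0.071), Rps21 (0.11) and Rpl35a (0.11), while Uck1, Ccny and Mff were nearest to Hspd1. Nearest to Hsp90aa1 were Atg2a, Sf1 and Sec11a, to Hsp90ab1 Glrx3, Phpt1 and Hnrnpf, to Hsph1 Il16, Zfp553 and Nap1l4, and to Dnaja1 Ncoa5, Ncl and Slc25a17.

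Among the partners of these chaperones few genes passed the test. Of 12 tested HSP90 co-chaperones, 1 rose and none fell with edgeR or DESeq2. Over all tested genes 9.81% rose and 3.68% fell with edgeR, and 11.4% and 6.79% with DESeq2. The co-chaperone gene that rose was Fkbp5, an immunophilin that binds HSP90 in steroid receptor complexes and is itself induced by glucocorticoids. Fkbp5 gave 59.6, 42.5 and 40.6 CPM for GFP- Treg, and 142.5, 175 and 136 CPM for GFP+ Treg, with no overlap (log2 fold change 1.69 ± 0.25, edgeR adjusted p = 0.00265). The count of 1 was found under 12 of 13 alternatives and was 0 without the protocol covariate. Its relative Fkbp4 had -0.46 ± 0.24, Ttc4 -0.40 ± 0.21 and Sugt1 0.27 ± 0.23, none past the threshold. The list's median was -0.092.

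Among 14 tested genes of the other HSP70 and HSP110 chaperones and their regulators, none passed with edgeR, with 2 higher and 1 lower at an unadjusted p under 0.05, and DESeq2 called 1 higher and 1 lower. Over all tested genes 15.3% were higher and 11.5% lower unadjusted, and 11.4% and 6.79% with DESeq2. Hspa2, an HSP70 best known from testis, had 1.23 ± 0.35 (edgeR adjusted p = 0.0550), and Bag3, an HSF1 target that links HSP70 to autophagy, 0.68 ± 0.23 (edgeR adjusted p = 0.0978). Hspbp1, a nucleotide exchange factor of HSP70, had -0.68 ± 0.21 (edgeR adjusted p = 0.0663), and St13, the HSP70 cochaperone HIP, -0.41 ± 0.21. Of 10 tested cytosolic J proteins none passed with edgeR or DESeq2, nor at an unadjusted p under 0.05. Dnajc7 had -0.65 ± 0.37, Dnajb6 0.30 ± 0.22, Dnajc2 -0.32 ± 0.27 and Dnajc9 0.24 ± 0.22.

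The mitochondrial chaperones and proteases had the lowest median of the 7 lists of related genes, -0.35 over 12 tested genes, with 9 of 12 below 0 against 56.2% of all tested genes. None passed with edgeR or DESeq2, and 3 were lower at an unadjusted p under 0.05, where 11.5% of all genes were: the protease gene Yme1l1 (-0.51 ± 0.21), the mitochondrial J protein gene Dnaja3 (-0.51 ± 0.22) and Hspa9, the mitochondrial HSP70 (-0.50 ± 0.21). Hspa9 gave 86.9, 122 and 100.3 CPM for GFP- Treg, and 63.1, 81.2 and 74.0 CPM for GFP+ Treg, with no overlap within a protocol. Grpel1, its exchange factor, had -0.37 ± 0.23. In 6 of the 12 genes every GFP+ library was below the GFP- libraries of its protocol, against 19.3% of all tested genes.

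The chaperonin TRiC, which folds actin and tubulin, and prefoldin, which hands it clients, had a median of -0.32 over 13 tested genes. Of the 13, 11 were below 0, against 56.2% of all tested genes. With edgeR none passed, 1 was lower at an unadjusted p under 0.05, and DESeq2 called 1 lower. Over all tested genes 11.5% were lower unadjusted, and 6.79% with DESeq2. Cct4 had the smallest p, at -0.82 ± 0.31 (edgeR adjusted p = 0.124), followed by Pfdn2 (-0.43 ± 0.23), Cct5 (-0.48 ± 0.28) and Cct8 (-0.43 ± 0.27). In 7 of the 13 the GFP+ libraries were all below within each protocol, against 19.3% of all tested genes. This order was found for 4 of 14 HSP70 list genes, 3 of 12 HSP90 co-chaperones and 0 of 10 J proteins. It was found for 1 of 5 small heat shock and factor genes and 2 of 10 immediate early genes. The opposite order was found for 4, 2, 1, 0 and 3 genes of these lists, against 21.3% of all tested genes. The mitochondrial and the TRiC and prefoldin lists had 0 such genes.

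Of 5 tested small heat shock proteins and heat shock factors, none passed with edgeR or DESeq2. Hsf1, the master regulator of the response, was lower at an unadjusted p under 0.05 (-0.59 ± 0.24, edgeR adjusted p = 0.165), as 11.5% of all tested genes were. Hspb11 had -0.70 ± 0.31, Hspb1, a small chaperone, 0.61 ± 0.35, and Hsf2 0.54 ± 0.58. Immediate early genes, which rise within minutes of stimulation or handling of cells, were tested for 10 of 16 genes. None passed with edgeR, 3 were higher and 1 lower at an unadjusted p under 0.05 (15.3% and 11.5% of all genes), and DESeq2 called 1 higher and 1 lower (11.4% and 6.79%). Dusp1, a phosphatase induced by stress and glucocorticoids, gave 67.9, 39.2 and 19.2 CPM for GFP- Treg, and 197, 202.5 and 28.0 CPM for GFP+ Treg, overlapping within the single-cell protocol (log2 difference 1.83 ± 0.62, edgeR adjusted p = 0.0963). Zfp36 had 0.59 ± 0.21, Fosb 1.09 ± 0.40 and Btg2 -0.59 ± 0.22.

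**Figure D5:**
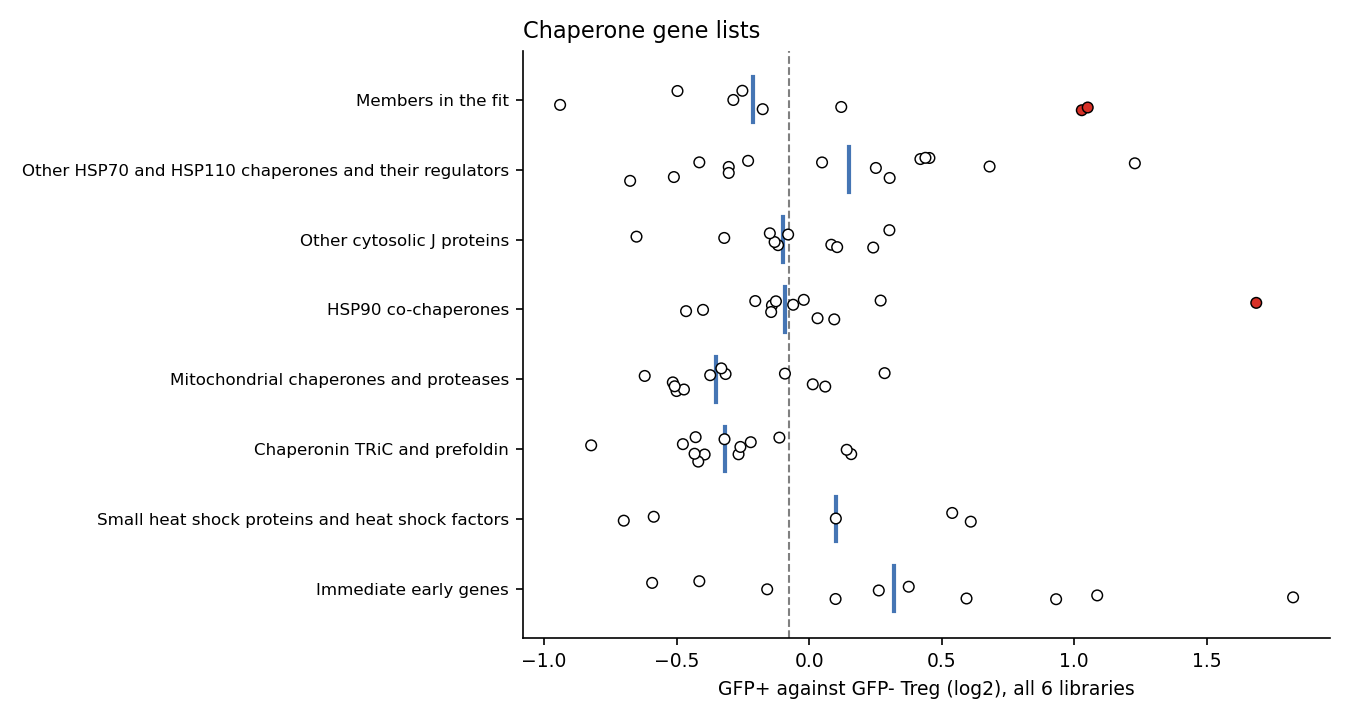
Log2 difference of GFP+ against GFP- Treg for each tested gene of the members and of 7 lists of related genes (points, red past 0.05), with list medians as blue bars and the median of all tested genes as a dashed line. Hspa1a, Hspa1b and Fkbp5 are the only red points, and the mitochondrial and TRiC lists have their medians at -0.35 and -0.32.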

How the data were processed

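For the 6 libraries the authors deposited 2 tables of raw read counts by Entrez gene. They also deposited log2 RPKM values. The submitters' processing notes name Subread, featureCounts, edgeR and the build mm9, without versions. Whether counting used strand, and how reads shared by genes were treated, is not given in the sources used here. The tables were joined by Entrez number. Genes were kept by filterByExpr (10523), scaled by TMM, and tested with edgeR 4.0.16 in R 4.3.3 by the quasi-likelihood F-test with the protocol as covariate (3 residual degrees of freedom), adjusted by Benjamini-Hochberg at 0.05. The TMM factors spanned 0.519 to 0.846 under the single-cell protocol and 2.02 to 2.06 under poly(A) selection. Standard errors were derived from the F statistic. The interaction fit had 2 residual degrees of freedom. Genes at 0 in the single-cell protocol were compared in the poly(A) pair without a test. Alternatives used DESeq2 1.42.0, limma 3.58.1, RLE factors, no filter, no covariate, a block, and each library left out. The test was checked on simulated counts.

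The members and lists were chosen with earlier results of these data known. All members are named, and of each list the up to 4 genes with the smallest p, and for each member the 3 genes nearest in profile with a mean of at least 10 CPM. No label ties a library to an animal, so the p-values reflect how these samples vary.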

Additional observations from a re-analysis of the deposited data

How the results depend on the processing

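Of 114 combinations of the 8 tested members with an alternative, 94 kept direction and side of the threshold. The alternatives are not independent: leaving out either poly(A) library nearly repeats the single-cell protocol libraries alone. Hspa1a lost its call without the protocol covariate (1.31), with limma on the deposited log2 RPKM (0.95) and in the single-cell protocol libraries alone (0.74). Hspa1b lost it under the same settings (1.34, 0.89 and 0.74) and with RLE factors (1.02, edgeR adjusted p = 0.0547). Leaving out single libraries gave 0.76 to 1.21 for Hspa1a, 0.76 to 1.27 for Hspa1b and -1.33 to -0.27 for Hspe1. Hspe1 passed without the low count filter (-0.93, edgeR adjusted p = 0.0210) and with the replicate block, which joins neighbouring numbers of the titles (-0.78, edgeR adjusted p = 0.0435). Hsp90aa1 ranged from -0.10 to 0.33 with 1 library left out, the negative value without GFP- replicate 2. Scaled by TMM, the poly(A) pair gave -0.18 for Hspa8 and 0.020 for Dnajb1, and the deposited values gave -0.037 for Hspa8. Leaving genes at 0 in the single-cell protocol out of library sizes changed nothing by construction, since none was kept. The causes of the other changes were not tested. Calls in the lists of related genes changed as well. The replicate block called 3 mitochondrial, 2 TRiC and prefoldin, 2 small heat shock and factor genes, 1 J protein and 1 HSP70 list gene lower, 2 HSP70 list genes higher, and of the immediate early genes 4 higher and 1 lower. Without GFP- replicate 2, 1 mitochondrial and 1 TRiC or prefoldin gene were lower and 1 HSP70 list gene higher. limma called 1 HSP70 list and 1 TRiC or prefoldin gene lower. With no filter 1 HSP70 list and 2 immediate early genes were higher, and 1 of each was higher without GFP- replicate 5 and GFP+ replicate 4 respectively.

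The number of genes called, 1419, was 2500 of 21218 without the filter, 139 without the protocol covariate and 2921 with the replicate block, and 703 to 2015 with 1 library left out. Omitting GFP+ replicate 19 left 703, omitting GFP- replicate 20 left 722, and omitting GFP+ replicate 1 left 870 genes. With GFP+ replicate 19 or GFP- replicate 20 omitted, the single-cell protocol libraries alone carry the population comparison. The share of higher genes among the calls was 72.7%, and 62.7% with DESeq2. In the single-cell protocol libraries 711 genes were called, and 423 to 1054 with 1 left out (438 when GFP+ replicate 1 and 423 when GFP+ replicate 4 was omitted), when the lone library of its population is assumed to vary like the others. No paired analysis by shared numbers was possible because the populations share no replicate number. Depth limits Hspa1a, Hspa1b and Dnaja1 in the single-cell protocol.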

Other observations

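Members differed far more between the 2 protocols than between the populations. On the TMM scale, the mean log2 CPM of the single-cell protocol libraries minus that of the poly(A) libraries was -4.32 for Dnaja1, -4.28 for Hspa1b and -3.25 for Hspa1a, which placed them at the 1.8th, 1.9th and 4.5th percentile of 10388 genes. Hspe1 (3.23), Hsp90ab1 (2.77), Hsp90aa1 (2.61) and Hspd1 (1.70) were higher in the single-cell protocol, and Hsph1 was at 0.77. Over all these genes the median was 2.15 for genes under 1000 bases and -1.05 for genes of 3000 bases and longer. These bins used the lengths listed with the poly(A) counts. With the single-cell protocol counts Dnaja1 was listed at 3000 bases against 5792, and Hsph1 at 3000 against 3478. The part of such differences in listed length was not tested. Hspa1a and Hspa1b, at 2798 and 2810 bases, stand in a bin with a median of -0.14. Pseudogenes and relatives share 58.5% of the 50-base stretches of Hsp90aa1, 44.8% of Hspd1, 36.1% of Hspe1, 18.7% of Dnaja1 and 4.49% of Hsp90ab1. How such reads were counted is not given in the sources used here.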
